A study of Mus musculus with 8 samples.

Results

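Interferon-response melanoma cells were defined here as the 5.0% of pigmented tumour barcodes with the highest level of 7 interferon-induced genes. Barcodes of all 8 tumours were pooled and kept when they held 200 to 5000 genes, at most 7.5% mitochondrial UMIs, at least 4000 UMIs, and at least 0.3% of UMIs in the melanocyte genes Mlana, Pmel, Dct, Tyr and Tyrp1. A UMI is a unique molecular identifier, so a count is a number of captured molecules. The score of a barcode was the mean of ln(1 + count per 10000) over Ifit1, Ifit3, Rsad2, Isg15, Irgm1, Gbp2 and Igtp. Of 41925 deposited barcodes, 22783 passed the gate and 1139 were members, so the members were selected on measured values and those genes are given below as a description.

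Interferons are secreted antiviral cytokines that act through cell-surface receptors. Type I interferons signal through a complex that holds STAT2 and IRF9 and induce antiviral genes such as the Ifit and Oas families through the interferon-stimulated response element, whereas interferon gamma, made mainly by T and natural killer cells, signals through a receptor of its own and is the stronger inducer of the guanylate-binding proteins, the immunity-related GTPases and the genes of antigen presentation. The same genes can also be induced without interferon, when sensors of viral or misplaced nucleic acid activate IRF3. In tumours, the response is known for raising the class I molecules and chemokines through which T cells find and recognize melanoma cells.

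The tumours were large (300 mm3) subcutaneous tumours of B16F10, a mouse melanoma line, from 4 Atf4wt/wt and 4 Atf4D/D hosts of 12 weeks by the labels, with 1 droplet library (10x Genomics 3′) per tumour. Atf4 encodes a transcription factor of the integrated stress response. In Atf4D/D hosts it was excised throughout the body by a tamoxifen-inducible Rosa26::CreERT2, and the Atf4wt/wt hosts also carried CreERT2 and received tamoxifen. The injected melanoma cells carried intact Atf4 in both groups, so the host genotype was not a genotype of the members. Total UMIs ran from 37283598 to 74942137 per library, and the summed members of a tumour held from 400338 UMIs in Atf4D/D replicate 4 to 2967018 in Atf4wt/wt replicate 4.

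Atf4 itself was low in host cells of the Atf4D/D tumours and not in the members. Barcodes rich in leukocyte genes held 202 ± 45.0 CPM (UMIs per 1e6 UMIs, mean ± SD) of Atf4 in the 4 Atf4wt/wt tumours and 60.0 ± 19.9 in the 4 Atf4D/D tumours, and barcodes rich in fibroblast collagen genes held 285 ± 15.6 and 98.4 ± 39.7. In the summed members it was 330 ± 70.8 CPM in Atf4wt/wt and 363 ± 63.1 in Atf4D/D tumours.

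Each of the 7 score genes was set apart in the members of every tumour, by construction. All levels below are CPM of the summed counts of a tumour, scaled with edgeR's TMM (trimmed-mean) library factors, fitted on the 16 sums of members and other gated barcodes, unless stated otherwise. Isg15, a ubiquitin-like protein attached to other proteins during the antiviral response, stood at 529, 742, 805 and 718 CPM in the members of Atf4wt/wt replicates 1 to 4 and at 648, 696, 765 and 589 in those of Atf4D/D replicates 1 to 4. The groups overlapped, and the mean of 686 ± 92.8 compared with 25.5 in the other gated barcodes. The RNA-binding protein Ifit1 averaged 367 ± 101 CPM in members and 1.90 in the others, its relative Ifit3 276 ± 59.9 and 2.19, and the radical-SAM enzyme Rsad2 (viperin) 540 ± 166 and 15.7. Reads of Ifit3 may be shared with its close copy Ifit3b. Among the GTPases, Irgm1 averaged 124 ± 37.1 CPM against 8.82, Gbp2 62.5 ± 47.7 against 1.84 and Igtp 58.9 ± 43.0 against 1.37.

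**Figure D1:**
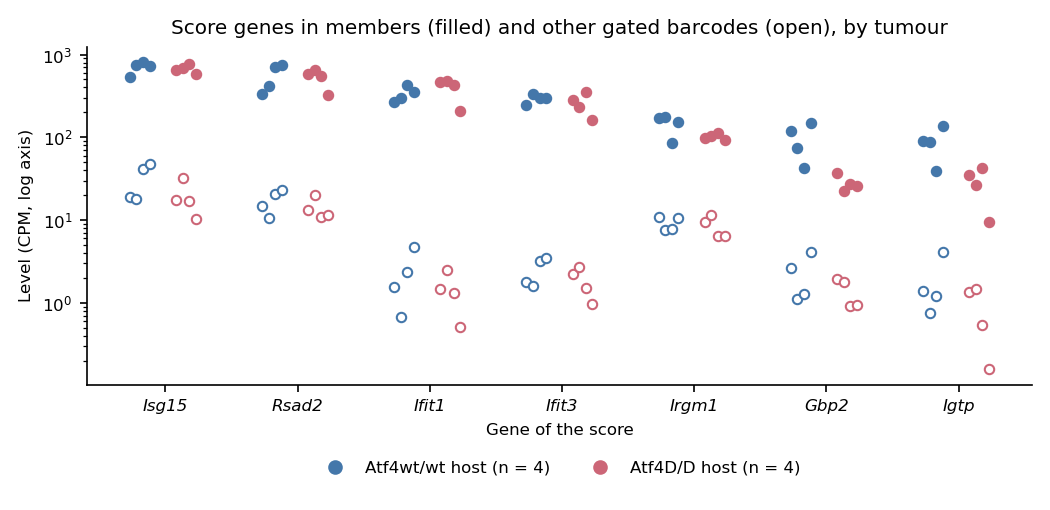
Levels of the 7 score genes in the summed members (filled) and other gated barcodes (open) of each tumour, in CPM on a log axis, with Atf4wt/wt tumours in blue and Atf4D/D tumours in red. Members lie above the others for every gene because these genes chose them, while Gbp2 and Igtp vary most between tumours, Igtp from 9.46 to 138 CPM.

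Gbp2 and Igtp spread more widely between tumours than the other score genes. Igtp was at 91.5, 88.4, 39.3 and 138 CPM in Atf4wt/wt members and at 35.2, 26.5, 42.3 and 9.46 in Atf4D/D members. Gbp2 was at 120, 75.3, 42.8 and 148 CPM and at 36.9, 22.8, 27.6 and 26.0. For Gbp2 the groups did not overlap, as for 416 of the 8762 genes tested for genotype (4.75%), and for Igtp they did. Irgm1 overlapped too, at 173, 175, 82.7 and 151 CPM (without TMM) in Atf4wt/wt members. In Atf4D/D members Irgm1 was at 98.2, 106, 114 and 97.4. For each of these GTPases the third Atf4wt/wt tumour was the lowest of its group. Members were chosen by these genes, so no genotype difference is read from them. Within single barcodes, Isg15 was found in 94.9% of members and 15.8% of the others, and Rsad2 in 83.5% and 13.9%. After every barcode was thinned to 4000 UMIs these shares were 80.0% and 7.55% for Isg15, and 61.7% and 5.87% for Rsad2. Free RNA in the droplets gives some UMIs to every barcode, so the shares in the others were not read as expression. Igtp was found in 30.3% of members, from 9.09% to 45% by tumour, and 71 members (6.23%) held all 7 genes.

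The score had no gap at its threshold. The lowest member scored 0.4176 and the highest other 0.4174, both the 20 barcodes just inside and the 20 just outside held a median of 6 UMIs of the score genes, and the members as a whole held a median of 14. Among the others, 65.5% scored 0. Members are therefore the upper end of a range and not a separate class.

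To show what the score genes have in common in sequence, the stretches of their promoters that hold letters like the interferon-stimulated response element are printed here. The letters GAAANNGAAA were searched on both strands of the 250 bases before each gene's start in the RefSeq annotation of GRCm38.p6. They are in 617 of 20595 promoters of that length (3.00%) and in those of 7 of 7 score genes. Capitals mark the matches, and overlapping matches run together.
Ifit1, chr19:34640770-34640828, plus strand: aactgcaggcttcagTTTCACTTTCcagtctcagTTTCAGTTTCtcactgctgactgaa
Ifit3, chr19:34583358-34583431, plus strand: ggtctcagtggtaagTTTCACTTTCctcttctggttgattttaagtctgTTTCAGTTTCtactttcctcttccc
Rsad2, chr12:26456548-26456587, minus strand: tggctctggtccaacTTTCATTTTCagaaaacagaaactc
Isg15, chr4:156200860-156200911, minus strand: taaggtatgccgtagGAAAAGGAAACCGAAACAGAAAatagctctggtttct
Irgm1, chr11:48871421-48871465, minus strand: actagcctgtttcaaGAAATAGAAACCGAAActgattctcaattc
Gbp2, chr3:142620589-142620628, plus strand: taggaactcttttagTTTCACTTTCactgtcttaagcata
Igtp, chr11:58199507-58199546, plus strand: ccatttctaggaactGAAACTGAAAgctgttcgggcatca

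The same letters were found before genes that the score did not use. Of the guanylate-binding and immunity-related GTPase genes with a promoter in the RefSeq table, 8 of 9 (88.9%) held GAAANNGAAA, compared with 14 of 49 (28.6%) of the listed antiviral genes, 3 of 20 (15%) of class I presentation genes and 1 of 22 (4.55%) of S-phase genes. The letters TTCNNNGAA, as in the gamma-activated site, were in 6 of 9 of those GTPase promoters (66.7%) and in 1402 of all 20595 (6.81%). The antiviral stretch of Ifit3 recurs unchanged before Ifit3b, and 1 stretch is shared by Apol9a and Apol9b, so these pairs cannot be separated by these letters. A match describes the sequence only. Further stretches belong to genes whose values follow.
Ifit3b, chr19:34607754-34607827, plus strand: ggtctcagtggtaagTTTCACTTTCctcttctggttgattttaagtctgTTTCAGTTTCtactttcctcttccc
Apol9a, chr15:77411109-77411154, minus strand: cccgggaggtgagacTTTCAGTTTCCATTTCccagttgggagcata
Gbp3, chr3:142559984-142560029, plus strand: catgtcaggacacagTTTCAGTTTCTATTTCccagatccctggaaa
Cxcl10, chr5:92349078-92349117, minus strand: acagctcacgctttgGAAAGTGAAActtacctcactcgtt
B2m, chr2:122147533-122147572, plus strand: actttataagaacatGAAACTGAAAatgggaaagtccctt

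Members had pigment genes at levels close to those of the other gated barcodes, which passed the same gate. The 5 gate genes summed to 13820 ± 414 CPM in members and 13644 ± 1055 in the others, and Dct (dopachrome tautomerase) stood at 5713 and 5764 CPM. Both sets had to hold these genes by the rule, so their levels say nothing of what the barcodes are. Outside the gate genes, Mitf, a transcription factor of the pigment lineage, stood at 341 ± 42.7 CPM in members and 339 ± 43.2 in the others, and Sox10, another, at 129 ± 13.5 and 123 ± 14.4. The median UMI count per barcode was 10256 ± 706 in members and 10601 ± 875 in the others, and the median mitochondrial share was 5.24% and 5.45%, lower in members in 8 of 8 tumours. No doublet caller was run. Barcodes with at least 2 UMIs of 16 leukocyte, fibroblast and endothelial genes made up 54 members (4.74%) and 1008 gated barcodes (4.42%). Of 41725 distinct barcode sequences, 199 occurred in more than 1 library, and 17 member sequences were seen in another library.

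Markers of other cell types were low in the members, apart from genes that melanoma cells also use. Of 12 T and natural killer cell markers, 10 had 0 UMIs in all members, as had 6 of 10 dendritic and 3 of 5 erythroid markers. The 14 macrophage markers summed to 1129 ± 98.2 CPM in members and 1031 ± 93.5 in the others, higher in 8 of 8 tumours, of which Apoe made up 1079 and 1007 CPM. Among macrophage genes, Lyz2 was at 14.4 ± 17.8 CPM in members and 5.60 in the others, and 53.9 in the members of Atf4D/D replicate 2. Csf1r, the macrophage growth factor receptor, stood at 0.566 CPM. The 10 leukocyte markers summed to 408 CPM in members and 404 in the others, and the 10 fibroblast markers to 601 and 570. Of 13 macrophage markers that could be tested 7 were higher in members, and none of the 7 that could be tested after barcodes with host markers were left out, some of which are the same genes. The macrophage signal moved with the score. Its part in the other differences was not tested beyond leaving those barcodes out. Without them 50 of 53 tested antiviral genes were higher in members (median log2 fold change 2.71), and with them 54 of 56 (2.55).

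Members were found in all 8 tumours, and their share of the gated barcodes varied widely. In Atf4wt/wt tumours the share was 4.38%, 3.83%, 7.51% and 12.3%, or 206, 100, 153 and 300 members. In Atf4D/D tumours it was 2.45%, 6.75%, 3.24% and 1.24%, or 58, 185, 104 and 33 members. The groups overlapped, with Atf4D/D replicate 2 above 2 Atf4wt/wt tumours, and the means were 7.0% ± 3.88 and 3.42% ± 2.37 (SD, n = 4 each). The difference of -3.59 percentage points had p = 0.143 in an exact two-sided permutation test, whose smallest possible p was 0.0286. Without Atf4wt/wt replicate 4, which held 26.3% of all members, it was -1.82 points (exact permutation p = 0.314), and in tumours of males alone it was -2.21 points (exact permutation p = 0.4, smallest possible 0.1). The share was thus not shown to differ with the host genotype at this number of tumours.

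**Figure D2:**
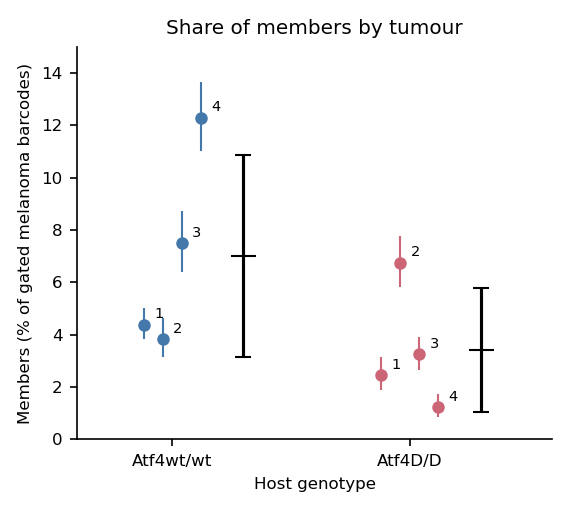
Members as a percent of the gated barcodes of each tumour, with exact 95% binomial intervals that cover counting error only, and a black bar for the mean ± SD of each genotype. Atf4wt/wt replicate 4 is highest at 12.3% and Atf4D/D replicate 4 lowest at 1.24%, and the genotypes overlap.

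Neither the number nor the interferon-induced genes of the leukocytes in a tumour were shown to follow the share of members. Barcodes rich in leukocyte genes numbered from 0.728 to 5.22 per 100 gated barcodes. The 7 score genes summed to 843 ± 870 CPM (without TMM) in these barcodes of Atf4wt/wt tumours and to 877 ± 614 in those of Atf4D/D tumours, between the levels in members (2190 ± 322 and 2065 ± 387) and in the other gated barcodes (65.5 ± 25.5 and 47.7 ± 18.1). Across the 8 tumours the number of leukocyte barcodes and the member share had Pearson's r = 0.047 (permutation p = 0.922) and Spearman's rho = 0.19 (permutation p = 0.665). With the 2 tumours of most leukocytes left out, r was 0.65, so the value rests on them. For the level of the 7 score genes in leukocyte barcodes, r was -0.29 (permutation p = 0.504) and rho -0.38 (permutation p = 0.36), and r was -0.39 without the 2 tumours farthest from the median. Both relations had a Benjamini-Hochberg adjusted Pearson p of 0.922.

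Around the score, many other genes differed between members and the remaining gated barcodes. Counts were summed per tumour, and edgeR's quasi-likelihood test with the tumour as a block called 438 of 12797 genes higher (3.42%) and 445 lower (3.48%) in members at an adjusted p under 0.05. With DESeq2's size factors in place of TMM the calls were 494 higher and 267 lower, or 64.9% higher in place of 49.6%, since that scaling moved the median log2 fold change of all genes from -0.02 to 0.01. The score chose this contrast and interferon-induced genes are not independent of it, so the calls are a description and values are read by their size. In sums, fewer expressing cells and less RNA per cell cannot be told apart. With other barcodes matched to members on tumour and UMI count, 356 genes were higher and 211 lower.

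Outside the 7 score and 5 gate genes, the genes that differed most were mainly interferon-induced. Of the 15 largest log2 fold changes among the remaining genes higher in 8 of 8 tumours with at least 10 CPM in members, 13 belonged to the interferon lists. The largest of these 15 was Iigp1, an immunity-related GTPase that attacks the vacuoles of intracellular parasites, at 44.6 CPM against 0.313 (log2 fold change 7.27 ± 0.23, SE). Next came Ifit3b (6.96), the oligoadenylate synthetase-like Oasl1 (6.08) and Oasl2 (5.88), Apol9a (5.56) and its near-identical copy Apol9b (5.37), Ifi44 (5.53), the ISG15 protease Usp18 (5.43), the helicase Ddx60 (5.27), the dynamin-like GTPase Mx1 (5.20), the Z-nucleic acid sensor Zbp1 (4.98), Gbp3 (4.63), Ifi47 (4.54), Ifi203 (4.52) and the transcription factor Irf7 (4.5).

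The antiviral list was higher almost as a whole. Of 56 tested genes, 54 were higher in members and 0 lower, 44 of them in 8 of 8 tumours. The median log2 fold change was 2.55, where all tested genes had -0.02. Ifitm3, a membrane protein that blocks virus entry, was the most abundant at 1078 ± 186 CPM against 262 ± 85.0. Bst2 (tetherin), which holds budding virus at the cell surface, stood at 563 ± 128 CPM against 166, and Mx1 at 20.6 ± 5.14 against 0.550. The 2 that were not called were Nt5c3 and Slfn5. Summed over the list, every tumour's members, from 2980 to 4408 CPM, lay above every tumour's others, from 682 to 1160 CPM.

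Sensors of foreign RNA were among the genes that were higher. Of 13 tested genes 8 were higher and 0 lower, with a median log2 fold change of 1.42. Ifih1 (MDA5), a sensor of long double-stranded RNA, was at 64.0, 94.1, 86.8 and 81.4 CPM in Atf4wt/wt members and at 73.8, 95.7, 75.2 and 82.7 in Atf4D/D members, against at most 7.20 CPM in the others of any tumour (log2 fold change 3.91 ± 0.11). The genotypes overlapped, and every tumour's members lay far above every tumour's others. Ddx58 (RIG-I) differed by 3.34 ± 0.11, Dhx58 (LGP2) by 4.00 ± 0.17, Tlr3 by 1.67 ± 0.14 and Adar, which edits double-stranded RNA, by 1.15 ± 0.11. Mavs, the adaptor of Ifih1 and Ddx58, the DNA sensor Mb21d1 (cGAS), its adaptor Tmem173 (STING) and the kinases Tbk1 and Ikbke did not pass the test, and Tlr7 and Tlr9 had 0 UMIs in members.

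GTPases of the guanylate-binding and immunity-related families had large differences. Of 19 genes in the files 14 passed the low-count filter, some of them only through the members, so that their count of 14 called higher is partly set by the filter. Their median log2 fold change was 5.65, which stays at 5.65 when Gm4841, at 0 UMIs in the others, is set to its lower bound against 3 counts over the group. It was 4.72 over the 8 genes tested with matched others and 4.79 over the 5 tested without the tumour block. Summed over the list the level was 223 ± 140 CPM against 9.09 ± 3.36. By tumour it was 322, 346, 141 and 476 CPM in Atf4wt/wt members and 138, 131, 146 and 85.1 in Atf4D/D members. Atf4wt/wt replicates 1, 2 and 4 lay far above the rest, and replicate 3 lay with the Atf4D/D tumours. Gbp7 was the most abundant at 80.6 ± 26.7 CPM (log2 fold change 3.96 ± 0.12), and these families contain close copies whose counts may be split.

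Class I antigen presentation was higher in members, from the immunoproteasome through the peptide transporter to the heavy and light chains. Of 21 tested genes, 18 were higher and 1 lower, with a median log2 fold change of 1.34. B2m, the light chain of class I molecules, was at 618, 620, 490 and 678 CPM in Atf4wt/wt members and at 495, 530, 465 and 326 in Atf4D/D members, against 211 ± 50.4 in the others (log2 fold change 1.34 ± 0.05). Every tumour's members exceeded every tumour's others, of which the highest was 317. The heavy chains H2-K1 and H2-D1 differed by 1.17 ± 0.08 and 1.10 ± 0.07, with some reads possibly shared between them. The peptide transporter Tap1 was at 35.0 ± 18.6 CPM against 3.37, and the immunoproteasome subunits Psmb8 and Psmb9 at 32.4 ± 25 and 27.2 ± 25.1 CPM against 2.24 and 2.21. Psmb9, Tap1, Psmb8 and Tap2 lie side by side in the major histocompatibility complex, at chr17:34181987-34216321 of GRCm38.p6. The class I transactivator Nlrc5 differed by 2.71 ± 0.35 at a low level (4.5 CPM against 0.671). The exception, Calr, is a chaperone of the endoplasmic reticulum that also loads class I molecules, and it was lower by -0.16 ± 0.03.

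Class II genes were higher too, at levels that varied widely between tumours. All 7 tested were called higher, with a median log2 fold change of 2.40, 1 of them in 8 of 8 tumours. Their sum was 34.3, 98.8, 39.9 and 135 CPM in Atf4wt/wt members and 16.8, 13.0, 6.91 and 28.4 in Atf4D/D members, against 9.51, 7.17, 9.36 and 21.03 and 7.11, 7.53, 3.24 and 10.2 in the others of the same tumours, so that it was higher in members in 8 of 8. All 7 were called whichever tumour was omitted, apart from 6 of 7 without Atf4wt/wt replicate 4. No Atf4D/D tumour's sum in members reached that of the lowest Atf4wt/wt tumour. The sum was not tested for genotype, and 416 of 8762 single genes (4.75%) also had no overlap. Cd74, the invariant chain, was the most abundant class II gene at 24.1 ± 26.8 CPM, and its genotypes overlapped. Ciita, the class II transactivator, had 0 UMIs in the members of 5 tumours. All 7 were also called higher without barcodes with host markers (median 2.70). With matched others 4 of 4 tested class II genes were called, and without the tumour block 3 of 4. At these low levels, some of the 7 may pass the low-count filter only through the members.

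Among secreted and surface proteins the chemokines Cxcl10 and Ccl5 stood out. Cxcl10, which draws CXCR3-bearing T cells, was at 466, 532, 688 and 864 CPM in Atf4wt/wt members and at 508, 703, 562 and 215 in Atf4D/D members, against 36.7 ± 9.07 in the others (log2 fold change 3.97 ± 0.06). Ccl5 was at 163, 133, 398 and 525 CPM and at 215, 660, 346 and 85.1, against 31.1 ± 23.1 (log2 fold change 3.4 ± 0.08). Both chemokines were higher in members in 8 of 8 tumours, and Ccl5 spread widely between them. Of 9 tested chemokine and checkpoint genes 6 were higher. They included Cd274 (PD-L1) at 11.8 ± 4.78 CPM against 3.00, higher in 7 of 8 tumours, and Cd47, a signal against engulfment, at 107 ± 18.1 CPM against 76.1. Ido1 had 0 UMIs.

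Most transducers of the response were higher. Of 13 transducers 9 were called, with a median log2 fold change of 1.65. Stat2, a partner of Irf9, differed by 2.67 ± 0.16 and was higher in 8 of 8 tumours. Irf9 differed by 1.65 ± 0.13 and Irf1 by 2.05 ± 0.17, while the kinases Jak1, Jak2 and Tyk2 and the factor Irf3 were not called. Of 6 receptor genes, 0 passed the edgeR threshold in either direction (median log2 fold change 0.09), whereas 2 were called higher with the top 10% and 1 without Atf4wt/wt replicate 1. Ifnar1, of the type I receptor, was at 18.4 ± 3.26 CPM against 20.2 ± 1.6, and Ifngr1, of the gamma receptor, at 15.7 ± 3.06 against 16.2 ± 1.52. Of 9 negative regulators, Usp18 and Socs1 were higher (5.43 ± 0.18 and 1.25 ± 0.25).

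Interferon transcripts themselves were almost absent from these libraries. Of 21 interferon genes, 20 had 0 UMIs in the members, and the exception was 1 UMI of Ifnz. For a gene at 0 the summed members allow up to 0.246 CPM, counting 3 UMIs as the limit. In all 41925 barcodes Ifnb1 had 6 UMIs and Ifng 26, of which 20 lay in barcodes rich in leukocyte genes. Of these 20, 19 came from Atf4wt/wt replicate 4, the tumour with the highest share of members, and 1 from Atf4D/D replicate 4, the tumour with the lowest, so no relation with the share is read from a single library. Levels below this depth were not detectable.

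Genes of DNA replication were lower in members than in the summed other gated barcodes, but others with higher scores had levels like those of members. Of 25 S-phase genes 17 were lower and 0 higher, with a median log2 fold change of -0.27, and their sum was 1311 ± 167 CPM against 1656 ± 125, lower in 8 of 8 tumours. Rrm2, a subunit of the enzyme that makes deoxyribonucleotides, was at 118 ± 23.1 CPM against 180 ± 21.9 (-0.57 ± 0.06), Uhrf1, which guides maintenance of DNA methylation, at 59.2 ± 16.1 against 88.3 ± 9.78 (-0.47 ± 0.07), and the helicase subunit Mcm5 at 56.5 ± 11 against 81.6 ± 6.52. Rrm2 and Uhrf1 were also 2 of the 10 largest decreases among genes lower in 8 of 8 tumours, with the lipid transporter Abca12 (-0.64), the ubiquitin ligase subunit Skp2 (-0.59), which promotes entry into S phase, Rbm38 (-0.59), Clvs1 (-0.58), Pawr (-0.56), Tedc1 (-0.51), Zfp367 (-0.51) and Klhl23 (-0.49). These differences were small beside those of the interferon genes. By count, 13 S-phase genes were lower with others matched on UMI count, 11 by DESeq2, 10 with the top 2.5% and 3 without the tumour block, where the median was -0.26. Of 25 G2/M genes 5 were lower (median -0.14), 0 with matched others and 24 with the top 10% (median -0.27). By score bin (below, without TMM), the S-phase sum was 1691 CPM at score 0 and 2027 in the lowest bin of others. The higher bins of the others were at 1306, 1316 and 1312 CPM, within the 1151 to 1474 of the bins of members. Low S-phase levels were thus not particular to members, and no test compared the bins. The G2/M sum was 2475 CPM at score 0 and 3150, 1583, 1890 and 1782 in the bins of the others. In the bins of members it was 2084, 2468, 2416 and 1852.

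Other programmes of the melanoma cells differed little in size between members and the others. Of 20 hypoxia genes 1 was called (median log2 fold change 0.01), and of 20 genes of the integrated stress response 2 were higher and 2 lower (median 0.0025), among them Ddit3 (CHOP) at 153 ± 50.2 CPM against 131 ± 37.3. Of 16 chaperones of the endoplasmic reticulum 10 were lower, by a median of -0.13, and 5 with DESeq2's size factors. Their sum was 6585 ± 678 CPM in members against 7190 ± 896, lower in 8 of 8 tumours. Among p53 targets 3 of 14 were higher, with the cell-cycle inhibitor Cdkn1a at 197 ± 33.8 CPM against 155 ± 21.1 and the apoptosis gene Bbc3 (PUMA) at 15.7 ± 3.77 against 10.3 ± 1.12. Of 13 NF-kB targets 4 were higher, among them the inhibitor Nfkbia (0.55 ± 0.07). In the pigment list 3 of 14 tested genes were higher and 0 lower (median 0.06). Its potassium channel gene Kcnj13 was higher by 1.35 ± 0.13, at 29.5 ± 15.2 CPM against 12.0 ± 6.54, and higher in 8 of 8 tumours.

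**Figure D3:**
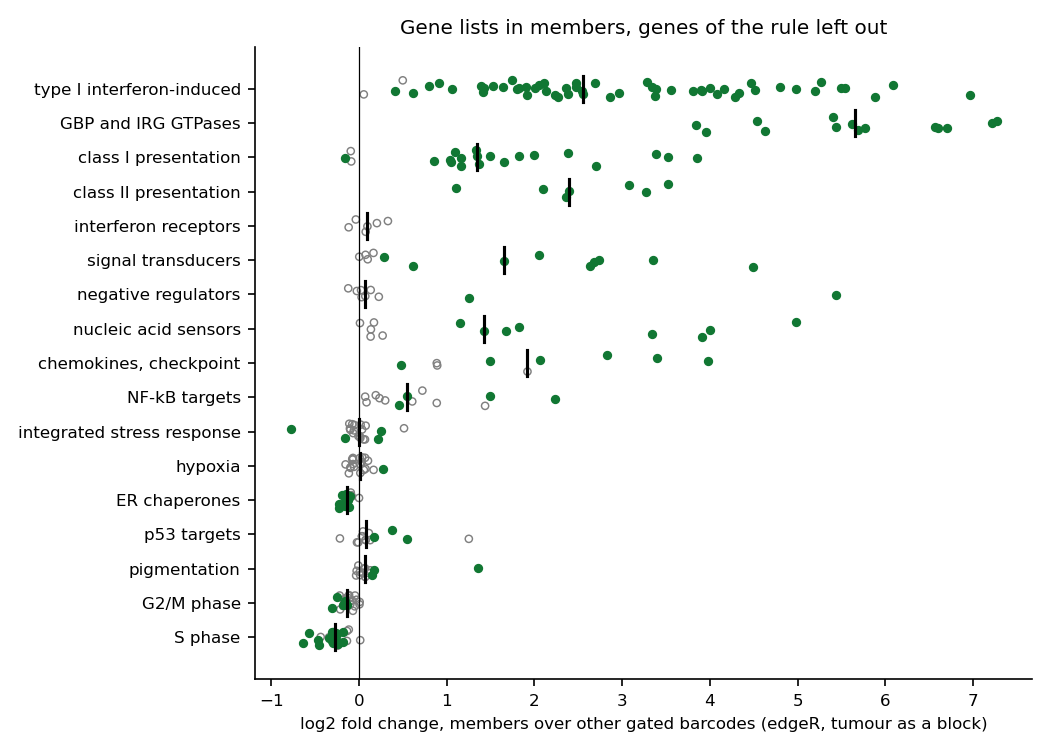
Log2 fold change of members over other gated barcodes for each tested gene of each list, with filled points where edgeR's adjusted p was under 0.05 and a bar at the list median. The interferon lists lie to the right, with medians up to 5.65 for the GTPases, the receptors lie at 0.09, and S-phase genes lie to the left at -0.27.

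Along the score, the antiviral and GTPase lists rose from bin to bin, and the S-phase genes did not fall in step. When gated barcodes were divided into those with score 0, 4 equal bins of the other barcodes and 4 equal bins of members, the antiviral list summed to 747 ± 120 CPM at score 0, 1697 ± 163 in the highest bin of the others, and 2564, 3331, 3678 and 5821 CPM in the bins of members. The GTPases ran from 5.85 CPM at score 0 through 29.2 in the highest bin of the others to 438 ± 262 in the highest bin of members. The S-phase list was at 1691 ± 134 CPM at score 0 and 2027 ± 150 in the lowest bin of the others. Barcodes of that bin held a median of 14699 UMIs. The higher bins of the others were at 1306 ± 302, 1316 ± 159 and 1312 ± 193 CPM. The bins of members were at 1243 ± 262, 1474 ± 229, 1368 ± 305 and 1151 ± 278 CPM. The bins of members thus lay below the level at score 0, and around that of the higher bins of the others. Deeper barcodes reach a low score with a single UMI, so depth and score are tied in the lowest bins. Class I presentation went from 2573 to 3757 CPM, but not in order, with 3483 CPM in the second bin of members and 3421 in the third. Bins of members hold as few as 6 barcodes in a tumour.

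**Figure D4:**
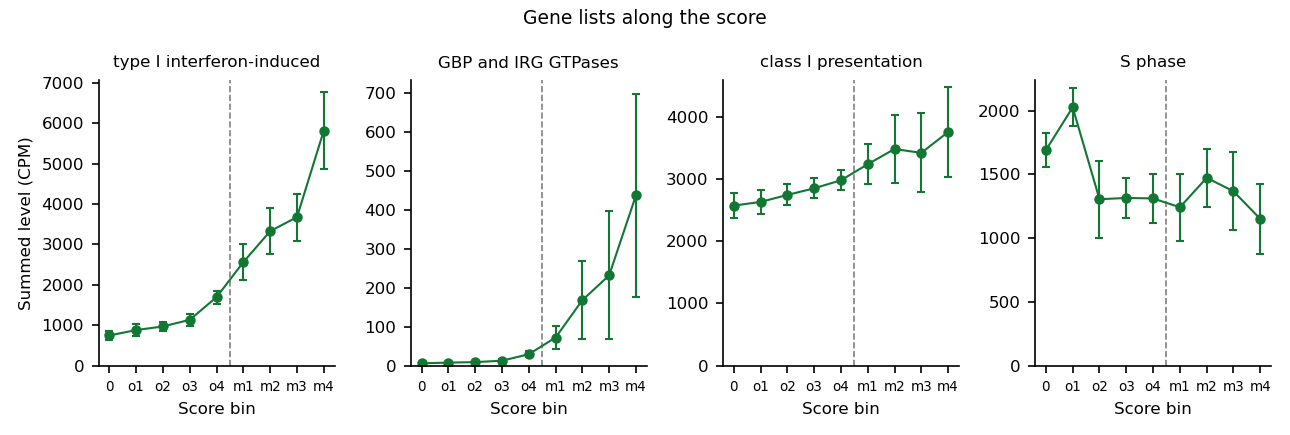
Summed CPM of 4 gene lists (mean ± SD over 8 tumours, unscaled by TMM) in barcodes with score 0, in 4 bins of the other barcodes with a score (o1 to o4) and in 4 bins of members (m1 to m4), with the threshold as a dashed line. The antiviral list rises from 747 to 5821 CPM over the bins, and the S-phase list peaks at 2027 CPM in the bin of deepest barcodes.

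Members differed in whether a UMI of each side of the score was seen. Of 1139 members, 807 (70.9%) held a UMI of Irgm1, Gbp2 or Igtp, which interferon gamma induces strongly, and 332 did not, at median depths of 10206 and 9587 UMIs. Only 8 members lacked a UMI of all of Ifit1, Ifit3, Rsad2 and Isg15. The split uses score genes and is given as a description, in CPM without TMM. A member without a GTPase UMI had to reach the threshold through the 4 antiviral genes, so levels of genes that go with either side are tied to the choice. Across barcodes the means of the 2 sides had r = 0.45 in the 22783 gated barcodes and r = -0.0035 in the 1139 members, which share libraries and depth, as a description only. Within single tumours r in members ran from -0.106 in Atf4wt/wt replicate 4 to 0.565 in Atf4D/D replicate 3, where the gated barcodes had 0.598. Iigp1 stood at 60.1 ± 64.5 CPM in members with a GTPase UMI and at 0.638 ± 1.80 in those without (732 and 3 UMIs). Psmb8 stood at 42.7 against 4.64 CPM, Psmb9 at 35.4 against 4.32 and Phf11d at 31.9 against 5.11, each higher with a GTPase UMI in 8 of 8 tumours. Ccl5 was at 240 ± 171 CPM with and 507 ± 282 without a GTPase UMI, higher with it in 1 of 8 tumours. Cxcl10 stood at 528 ± 229 and 655 ± 230 CPM, Ifih1 at 77.8 ± 10.4 and 92.2 ± 26.8, and Oasl1 at 28.3 ± 15.1 and 33.9 ± 17.6. Cxcl10 and Oasl1 were higher with a GTPase UMI in 2 of 8 tumours and Ifih1 in 3 of 8. Nothing is read from any of these contrasts, those of Iigp1, Psmb8, Psmb9 and Phf11d included, beyond the choice itself.

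Host genotypes were also compared within the members, and the score genes were left out of that comparison. The genotype did not enter the choice of members, but interferon-induced genes that vary with the score are tied to that choice here too. Members of the 4 Atf4D/D tumours were compared with those of the 4 Atf4wt/wt tumours. Of 8762 genes edgeR called 14 (0.16%), 7 higher and 7 lower in Atf4D/D (0.0799% each way), and 682 had an unadjusted p under 0.05. Of the 14, 5 were interferon-induced or presentation genes, and all 5 were lower in Atf4D/D hosts.

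Iigp1 was at 75.0, 79.0, 13.5 and 140 CPM in Atf4wt/wt members and at 15.1, 10.2, 17.3 and 7.09 in Atf4D/D members (log2 fold change -2.63 ± 0.48, adjusted p = 0.0258). The immunoproteasome subunit Psmb9 was at 50.3, 63.0, 8.80 and 58.3 CPM and at 13.4, 6.04, 8.64 and 9.46 (-2.43 ± 0.45, adjusted p = 0.0264). In both, Atf4wt/wt replicate 3 lay among the Atf4D/D tumours, and the exact permutation p was 0.0857. Cd74 was at 12.3, 56.5, 23.5 and 74.3 CPM and at 5.03, 4.18, 2.59 and 14.2 (-3.06 ± 0.56, adjusted p = 0.0258, exact permutation p = 0.0571), and Atf4D/D replicate 4 lay above Atf4wt/wt replicate 1. Ifi203, a nuclear DNA-binding protein, was at 33.4, 24.5, 22.3 and 40.2 CPM and at 13.4, 9.76, 13.0 and 7.09 (-1.5 ± 0.25, adjusted p = 0.0122). Phf11d was at 28.8, 31.1, 30.5 and 37.5 CPM and at 21.8, 12.1, 14.7 and 16.6 (-1.10 ± 0.21, adjusted p = 0.0330). For Ifi203 and Phf11d the groups did not overlap, and the exact permutation p was 0.0286, the smallest that 8 tumours allow.

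Several of these calls were lost when 1 tumour was left out, although the fold changes of the 5 named here stayed below 0. Across the fits that omitted a single tumour, log2 fold changes ran from -2.96 to -2.11 for Iigp1, -2.75 to -2.12 for Psmb9, -3.42 to -2.45 for Cd74, -1.61 to -1.31 for Ifi203 and -1.24 to -0.89 for Phf11d. Without Atf4wt/wt replicate 4 edgeR called 6 genes and without Atf4D/D replicate 2 it called 7, of which 0 were in the interferon lists, and without Atf4wt/wt replicate 2 it called 3, with Ifi203 among them. Without Atf4wt/wt replicate 3 it called 21, of which 14 were in the interferon lists, Gbp4, Gbp7, H2-D1, H2-K1, Psmb8, Psmb10 and Tap1 included. Without barcodes with host markers it called 11, with Iigp1, Psmb9, Ifi203 and Phf11d among them and without Cd74 (-2.72, edgeR's adjusted p = 0.0613). DESeq2 called 14, of which 6 were shared, with Ifi203 among them. With sex as a covariate edgeR called 5, with Cd74 as the only one of the lists. Only Tmod1 and Pde10a were called under all 18 alternatives.

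Few genes of the interferon lists passed the genotype test, and no test compared the lists. The median log2 fold change was -0.81 over 5 tested GTPases, all of them negative, and -0.74 over 19 class I genes, 18 of them negative, where all 8762 genes had 0.0054. Over 47 antiviral genes it was -0.12, with 29 negative. Of these lists 1, 1 and 2 genes passed the test. With sex as a covariate 0 of each passed, at medians of -1.53 over 7 GTPases, -0.53 over 20 class I and -0.10 over 49 antiviral genes. The counts of calls depended on which genes were tested and on single tumours, and the GTPase median on which genes were tested. Without the low-count filter the GTPases had a median of -2.14 over 17 genes with 7 called, and class I presentation had 10 of 23 called. Without Atf4wt/wt replicate 3 the GTPases had a median of -1.49 over 6 genes with 4 called and class I presentation 6 called, and without Atf4wt/wt replicate 4 both had 0 called, at medians of -0.77 over 5 GTPases and -0.56 over 19 class I genes. Cxcl10 (-0.31 ± 0.21), Ccl5 (0.20 ± 0.38) and Ifih1 (0.06 ± 0.14) did not pass it. S-phase genes had a median of -0.32, 23 of 25 negative, with 0 called.

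The other calls did not belong to the response, and most were shared by the melanoma cells at large. Tmod1, tropomodulin, which caps actin filaments, was at 14.6, 14.1, 10.6 and 12.3 CPM in Atf4wt/wt members and at 21.8, 35.8, 39.7 and 47.3 in Atf4D/D members (1.5 ± 0.21, adjusted p = 0.0057, exact permutation p = 0.0286). The phosphodiesterase Pde10a was at 145, 122, 106 and 135 CPM and at 75.5, 71.1, 64.8 and 73.3 (-0.84 ± 0.13, adjusted p = 0.0077, exact permutation p = 0.0286). Both had no overlap, and in the other gated barcodes Tmod1 averaged 14.6 and 26.7 CPM, and Pde10a 124 and 70.5, so that they differed in the same direction there. Lgals3 (galectin-3) averaged 545 CPM in Atf4wt/wt and 899 in Atf4D/D members (0.74 ± 0.12, adjusted p = 0.0095), and 426 and 576 in the others. Ftl1-ps1, Nme2 and Gstp1, which were higher in Atf4D/D, and Gm42418, which was lower, share sequence with other genes or lie over ribosomal RNA, so their counts are uncertain. Enpp2 was higher by 0.78 ± 0.16. In 8 of the 14 genes the tumours of the genotypes did not overlap, against 416 of all 8762 genes (4.75%).

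**Figure D5:**
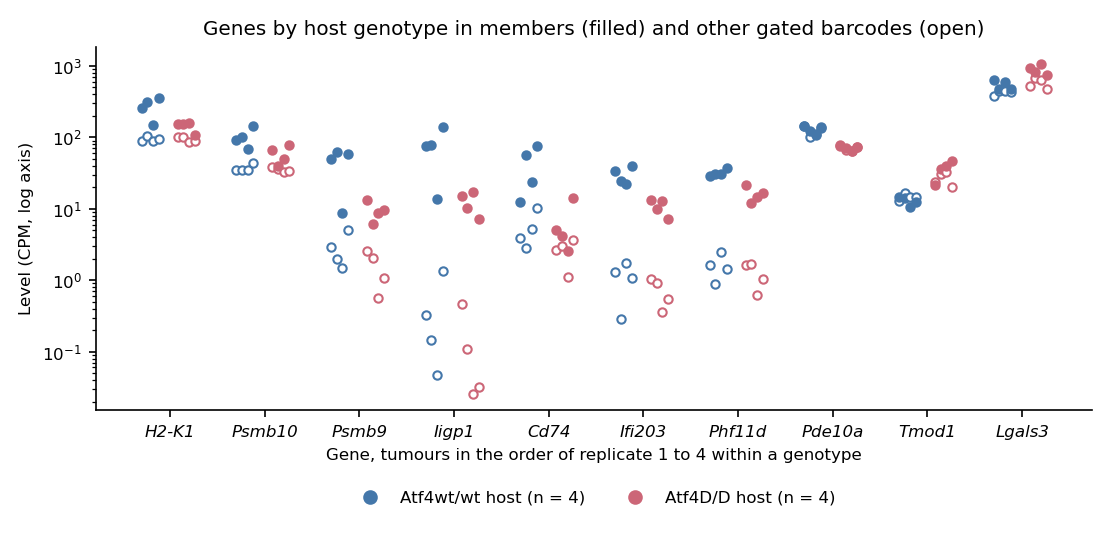
Levels of 10 genes in the summed members (filled) and other gated barcodes (open) of each tumour, in CPM on a log axis, by host genotype. For H2-K1, Psmb9 and Iigp1 the third Atf4wt/wt tumour lies with the Atf4D/D tumours, whereas Pde10a and Tmod1 separate the genotypes in members and differ in the same direction in the others.

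Whether the genotype difference in members exceeded that in the other gated barcodes was tested as an interaction. Of 12802 genes 16 passed (0.125%), 1 above and 15 below 0 (0.117%), and 650 had an unadjusted p under 0.05. H2-K1 was at 253, 307, 148 and 355 CPM in Atf4wt/wt members and at 154, 152, 160 and 109 in Atf4D/D members, while all others lay between 85.6 and 104 (interaction -0.83 ± 0.12 on the log2 scale, adjusted p = 2.3e-06). Psmb10 was at 91.9, 102, 69.2 and 142 CPM and at 65.4, 39.5, 49.2 and 78.0 (-0.92 ± 0.14, adjusted p = 7.6e-06). For both the groups overlapped and the exact permutation p of the same difference was 0.0571. H2-D1 (-0.56 ± 0.11), B2m (-0.43 ± 0.09), H2-T22 (-0.75 ± 0.17) and Cd74 (-1.77 ± 0.41) were also below 0, and Ccl5 was the one gene above 0 (0.59 ± 0.12). Class I presentation thus gave 5 of the 16 calls.

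The interaction calls depended on the tool and its settings. edgeR moderated each gene's spread towards that of all genes with 84.0 prior degrees of freedom, against 6 residual ones, and with a robust prior it called 16 genes, of which 8 were shared with these 16. DESeq2, which differs in scaling, in dispersion model and in test, called 0 genes (261 at an unadjusted p under 0.05). By exact permutation 3 of the 16 had p = 0.0286, namely Uhrf1, H2-T22 and Timp1. In these 3 the genotypes did not overlap, against 387 of all 12802 genes (3.02%). The term for Timp1 turned to 0.63 with the top 10%. Uhrf1 was at 80.5, 58.3, 63.9 and 84.5 CPM in Atf4wt/wt members and at 40.3, 47.4, 46.7 and 52.0 in Atf4D/D members (-0.61 ± 0.13, adjusted p = 0.0081), with 1 S-phase gene of 25 called. The collagen genes Col1a1, Col1a2 and Col3a1 were among the calls, with Col1a2 at 71.3, 0.941, 1.76 and 23.5 CPM and at 47.0, 3.72, 1.73 and 7.09. Collagen is a product of fibroblasts, its levels rested on single tumours, and the collagen calls were lost without Atf4wt/wt replicate 1 and without barcodes with host markers. Cd74, Ccl5, Ccl2, Saa3 and Timp1 were not called without those barcodes either, whereas H2-K1, Psmb10, H2-D1, B2m, H2-T22, C4b and Uhrf1 were. H2-K1 was called in 13 of 16 alternatives and Psmb10 in 15 of 16.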

How the data were processed

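Droplet single-cell RNA sequencing of 8 tumours was analysed from the deposited UMI counts per gene and barcode, 31053 features in each library, with 0 columns of unknown origin. Per the file headers and labels the authors made these counts with Cell Ranger 3.1.0 on GRCm38 and analysed them with Seurat 3.2.1. These counts were deposited unscaled, and barcodes with a high mitochondrial share had not been taken out. The labels name the V3 kit and mice of 12 weeks, the study's methods another kit version and age, and the sources used here do not assign a sequencer to each library. Groups, sex and replicate numbers came from the labels. The members and gene lists were chosen with earlier results of these data known.

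Counts were summed per tumour over members and over the other gated barcodes. edgeR 4.0.16 (R 4.3.3) filtered low genes, scaled by TMM and fitted quasi-likelihood models of genotype in members (without a block), of members against others with the tumour as a block, and of their interaction with genotype, at a Benjamini-Hochberg adjusted p of 0.05, with DESeq2 1.42.0 as an alternative. The scripts were tested on simulated data. Shares were compared by exact two-sided permutation over tumours (70 assignments), and genes by the same test on log2(CPM + 1). A gene at 0 was given the limit of 3 counts. Intervals and limits cover counting error only, since the depth of the members of a tumour, 400338 to 2967018 UMIs, sets the precision.

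Genes named were the score and gate genes, Atf4, the 15 largest increases and 10 largest decreases found in 8 of 8 tumours with at least 10 CPM, the 10 genotype and interaction calls of smallest p, and from each list the most abundant members or, for short lists, each one counted. Bbc3, Nfkbia, Kcnj13, Uhrf1, Mcm5, Timp1 and the remaining genotype and interaction calls were chosen after their values were seen. A few genes that the rule covers are not reported here. Alternatives covered the scaling, filter, tool, size of the top share, thinning to 4000 UMIs, removal of barcodes with host markers, sex, the replicate number and each tumour left out, and a robust edgeR prior and the permutation test per gene were added after seeing the data. Same-numbered tumours of the 2 genotypes did not deviate together (correlations from -0.086 to 0.022 over 8762 genes), so the numbers were not taken as pairs. Replicate tumours differed by more than sampling noise (chi-square per gene 1.5 to 4.39 over 12 pairs). Matrices were handled with python 3.11.15, numpy 2.4.6, scipy 1.17.1 and pandas 2.3.3, and figures drawn with matplotlib 3.10.9.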

Additional observations from a re-analysis of the deposited data

Results flagged for a closer look

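In 9 of 112 groups of 4 tumours, 1 tumour stood apart from the rest by Dixon's test at the 95% level, where chance gives about 1 group in 20. The interferon receptors summed to 217 CPM in the members of Atf4wt/wt replicate 2, the negative regulators to 303 CPM in those of Atf4wt/wt replicate 1 and the chaperones of the endoplasmic reticulum to 7085 CPM in those of Atf4D/D replicate 2. T and natural killer cell markers summed to 0.682 CPM in Atf4wt/wt replicate 4 and erythroid markers to 0.915 CPM in Atf4wt/wt replicate 1, with the rest of each group at 0. H2-K1 was low at 109 CPM in Atf4D/D replicate 4. Col1a2 was high at 47.0 CPM in Atf4D/D replicate 1, Rarres2 at 2.36 CPM in Atf4D/D replicate 4 and Saa3 at 31.6 CPM in Atf4wt/wt replicate 1.

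The genotype difference in members differed from that in other gated barcodes, by edgeR's interaction term, for 16 genes. On the log2 scale the term was -0.83 for H2-K1, -0.92 for Psmb10, -0.56 for H2-D1, -0.43 for B2m, -0.75 for H2-T22 and -1.77 for Cd74, all of antigen presentation. It was -2.68 for Col1a2, -2.45 for Col3a1 and -2.58 for Col1a1, and -5.05 for Rarres2, -1.04 for the complement gene C4b, -2.83 for the acute-phase gene Saa3, -2.49 for the chemokine Ccl2, -0.78 for Timp1 and -0.61 for Uhrf1. Rarres2 was at 0 CPM in all Atf4D/D members but those of replicate 4, so the size of its term is uncertain. That term ran from -9.76 to -3.70 with each tumour left out. Ccl5 alone was above 0, at 0.59. Exact permutation gave p between 0.0286 and 0.429 for these genes. With the top 10% the term for Timp1 turned to 0.63.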

How the results depend on the processing

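The difference in member share stayed below 0 under each alternative run and never passed its exact permutation test, from -6.29 points with the top 10% to -1.96 with the top 2.5%, and from -4.70 to -1.82 with each tumour left out. Genes called for members against others numbered 559 with DESeq2, 1504 with the top 10%, 567 with matched others, 243 without the tumour block, and 691 to 816 with each tumour left out. Genes called for genotype in members numbered 121 without the low-count filter, 5 with sex as a covariate, and 3 to 21 with each tumour left out. The interaction gave 0 with DESeq2, 26 without the filter, 7 with thinned scores, 7 without barcodes with host markers, 4 with the top 10%, and 10 to 29 with each tumour left out. Timp1 turned to 0.63 with the top 10%. The causes were not tested. With the replicate number as a replicate block, 22 genes were called for genotype, 13 of them shared with the 14, and the member share had an exact permutation p of 0.375 (smallest possible 0.125). With the robust prior 13 genotype genes (7 shared) and 16 interaction genes (8 shared) were called. Of the values of single genes under the alternatives, 1 reversed, 105 genotype and 117 interaction values fell short of the threshold, and 161 and 153 kept their side. The 33 members of Atf4D/D replicate 4, and the few UMIs per score gene at the threshold, limit what these sums can show.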

Other observations

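A single member barcode of Atf4wt/wt replicate 3 held 1148 UMIs of Iglc1, 782 of Igkc, 398 of Igha and 142 of Jchain, immunoglobulin genes that plasma cells use, together with enough pigment-gene UMIs to pass the gate.

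The choice of score genes changed who was a member. A score from Ifit1, Ifit3, Rsad2 and Isg15 alone kept 87.8% of the 1139 members, and one from Irgm1, Gbp2 and Igtp alone kept 51.1%. Scores from barcodes thinned to 4000 UMIs kept 83.6%.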
